A study of Saccharomyces cerevisiae with 12 samples.

Results

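The genotype by carbon source interaction asks whether the RPD3 mutant labelled Rpd3-2SA changed each transcript by a different amount in sucrose than in glucose. It is the log2 fold change of 2SA against WT in sucrose minus the same log2 fold change in glucose. A value below 0 means that the mutant stood lower, relative to WT, in sucrose than in glucose. All 12 of the 12 RNA sequencing libraries enter it, and 6085 of 7127 features in the count table passed the filter on low counts and were tested. The libraries come from 4 groups of 3 biological replicates of Saccharomyces cerevisiae: WT grown in glucose, WT grown in sucrose, and Rpd3-2SA grown in each of these sugars. All cells carried the strain label BY4741, a MATa laboratory strain derived from S288C, and were harvested in mid-log growth. The glucose medium was YPD, a rich medium, and the base of the sucrose medium is not described. By its title the series concerns phosphorylation of Rpd3, but what 2SA stands for is not in the labels, nor is how the strain was made or whether it is 1 clone.

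Rpd3 is the histone deacetylase of the Sin3 complexes, which remove acetyl groups from histones and repress genes to which DNA-binding proteins such as Ume6 bring them. Yeast prefers glucose, and while glucose is present it represses genes for other sugars through the repressor Mig1, which the kinase Snf1 counters. Sucrose is split outside the cell by invertase, the product of SUC2, a gene that glucose represses. Genes of the general stress response carry a short element, STRE, which the activators Msn2 and Msn4 bind, and genes for making ribosomes usually move opposite to them.

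Library totals lay between 20775911 and 25360037 counts. RPD3 (YNL330C, sacCer3 chromosome XIV, 18001 to 19302) had an interaction of −0.05 ± 0.12 (log2, SE), with a 95% interval of −0.31 to 0.21 and an edgeR adjusted p of 0.999. A count of RPD3 reads cannot tell a mutant from a WT library. Of the defining genes of MATa cells, STE2 had 92.5 to 261 CPM (counts scaled to a common library size, here by library total) and BAR1 21.9 to 104, while the alpha-cell genes STE3 and MF(ALPHA)1 had at most 4.74 and 0.301, MF(ALPHA)2 had 3.65 to 6.89 and SAG1 39.1 to 73.2. BY4741 is known to lack URA3, LEU2 and MET17, and LEU2 and MET17 had 1 and 0 counts in all libraries together, but URA3 had 252 to 491 CPM in each of the 12. The marker gene HIS3 had 32.2 to 69.4 CPM, and which form of it the strain carried is not in the labels. Same-numbered WT and 2SA libraries deviated from their group means together within a sugar, with correlations over genes of 0.545 to 0.654 in glucose and 0.603 to 0.847 in sucrose, so each such pair was compared within itself. The pair with number 2 in sucrose stood apart. Ribosomal protein genes took 4.09% of its WT library and 5.85% of its 2SA library, while the other sucrose libraries had 9.68% to 13.4%. For some of the genes and gene lists that moved with this pair, values are given with and without it. Others moved too, such as the COS genes, whose median interaction was −0.14 with it and −0.30 without it.

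No gene passed the test of the interaction. The edgeR quasi-likelihood F-test, with each pair as a block, called 0 features higher and 0 lower at an adjusted p under 0.05 and a fold over 1.5 (0% of those tested in each direction), and the lowest adjusted p was 0.212. At an unadjusted p under 0.05 there were 302 features, or 4.96%, of which 152 (2.5%) had a value above 0 and 150 (2.47%) below. That is close to the 304 that 5% of 6085 features gives. With DESeq2 in place of edgeR, 1 feature was called higher (0.0164%) and 9 lower (0.148%). The higher one was YER138C, and the lower ones were SUC2, TMA10, RGI2, HXK1, EGO4, TDH1, ADR1, HXT6 and GLK1.

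The spread of the interaction over all tested features sets what the data could show. The median was −0.01, and the middle 50% of features lay between −0.12 and 0.11. The median standard error was 0.153 and the median 95% half-width 0.35. For 4046 features (66.5%) the interval lay wholly within a 1.5-fold difference between the sugars, and for 5384 (88.5%) within a 2-fold difference. An estimate past 1.5-fold was found for 200 features, 65 above and 135 below 0. The effects of 2SA in the 2 sugars, which share no library, had a Pearson correlation of 0.70 and a Spearman correlation of 0.51 over 6085 features; genes are not independent replicates, and these values are a description.

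**Figure D1:**
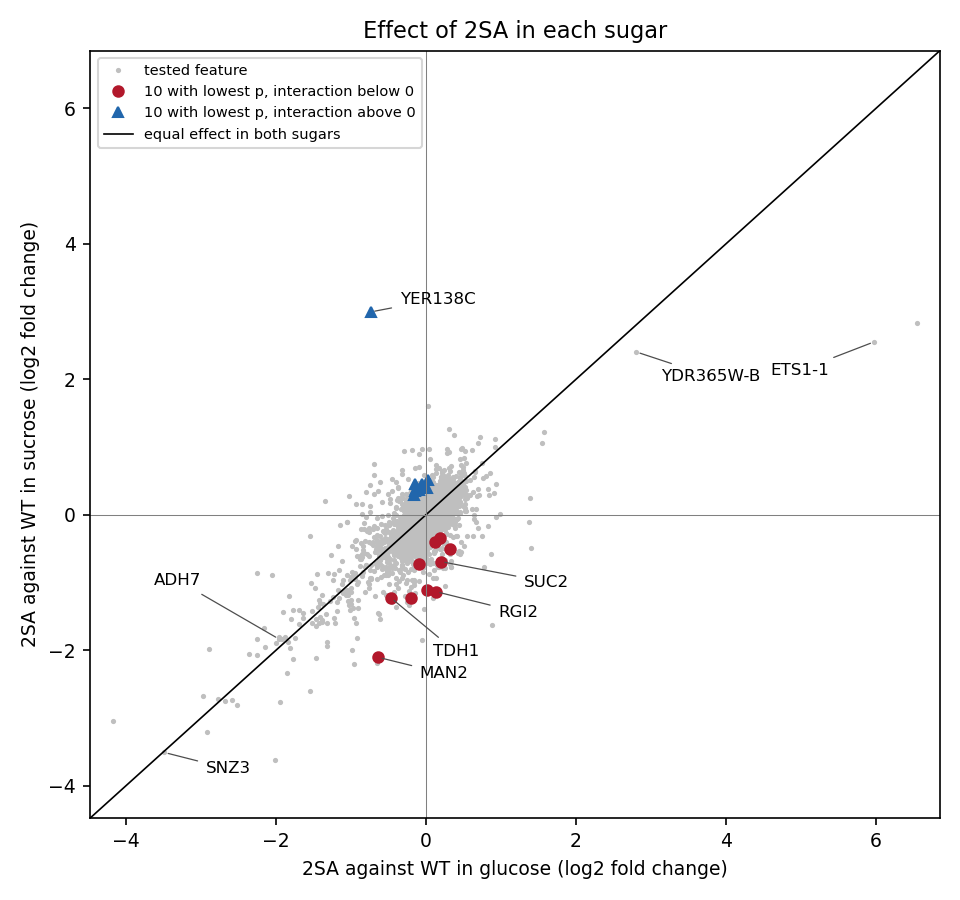
Log2 fold change of 2SA against WT in glucose (x axis) and in sucrose (y axis) for 6085 features, from the fit with the pairs as blocks; the diagonal marks an equal effect, so the vertical distance from it is the interaction. Most features sit near the origin or along the diagonal, SUC2, RGI2, TDH1 and MAN2 lie below it and YER138C lies far above it.

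Although none was called, the 10 features with the lowest p in each direction were named by rule. Below 0 were sugar-use and respiratory genes (SUC2, TDH1, RGI2, ADR1, MAN2), stress-induced genes (EGO4, TMA10, GAD1, PNC1) and the phosphatase subunit gene GIP2. Above 0, apart from YER138C, were mainly genes for ribosomes (RPL43B, RPS24B, RPS1A, RPL17B, UTP20, RPA190), with MAE1, CLB1 and MDM20. In all 20, the 3 sucrose pairs lay wholly on 1 side of the 3 glucose pairs. Over all tested features, 9.65% had pairs that lay apart in this way (5% above and 4.65% below), and since the 20 were chosen by p from the same values, their separation is a description.

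The stretches of upstream sequence below, 1 for each kind of gene, are shown because their short elements are well known: SUC2 for glucose repression, EGO4 for stress and RPA190 for ribosome production. They were read from the R64 (sacCer3) RefSeq genome on the plus strand, 5′ to 3′. Capitals mark, in SUC2 and EGO4, each match on either strand to AGGGG (STRE) or to a Mig1 core. The core was spelled CCGGGG in one form, while CTGGGG was another, GCGGGG was allowed as well, and so was GTGGGG. Capitals mark in RPA190 each match to GATGAG (PAC) or AAAATTT (RRPE), elements known from ribosome biogenesis genes.
SUC2, chrIX:36835-37134, 550 to 251 bases before the start codon: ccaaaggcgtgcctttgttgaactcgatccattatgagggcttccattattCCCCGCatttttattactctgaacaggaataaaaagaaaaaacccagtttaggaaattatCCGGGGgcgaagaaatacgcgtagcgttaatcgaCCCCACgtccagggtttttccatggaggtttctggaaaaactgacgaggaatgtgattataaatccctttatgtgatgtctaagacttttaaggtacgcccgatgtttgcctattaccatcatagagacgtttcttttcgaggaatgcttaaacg
EGO4, chrXIV:692061-692360, 500 to 201 bases before the start codon: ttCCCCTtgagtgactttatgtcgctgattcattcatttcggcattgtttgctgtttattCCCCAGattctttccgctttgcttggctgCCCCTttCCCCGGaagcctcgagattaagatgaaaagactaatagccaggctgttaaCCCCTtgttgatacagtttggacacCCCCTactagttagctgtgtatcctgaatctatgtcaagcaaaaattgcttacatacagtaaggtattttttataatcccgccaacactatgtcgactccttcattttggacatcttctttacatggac
RPA190, chrXV:960687-960986, the 300 bases before the start codon: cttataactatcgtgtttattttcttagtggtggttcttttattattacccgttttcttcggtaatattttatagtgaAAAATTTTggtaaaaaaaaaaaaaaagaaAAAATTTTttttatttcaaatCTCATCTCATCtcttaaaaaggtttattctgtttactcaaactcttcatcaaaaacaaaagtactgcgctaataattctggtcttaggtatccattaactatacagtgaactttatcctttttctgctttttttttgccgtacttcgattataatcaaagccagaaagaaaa
SUC2 held 3 Mig1 cores, starting 499, 439 and 405 bases before its start codon, and 0 STRE in 600 bases. EGO4 held 5 STRE and 2 Mig1 cores in the same length. RPA190 held 2 overlapping PAC and 4 overlapping RRPE matches. Each AAAATTTT stretch counts as 2 RRPE matches, since it reads as the element on either strand. A match is a string of letters and not a bound site.

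In the 600 bases upstream, a Mig1 core stood in 7 of the 10 genes with the lowest p below 0, in 1 of the 10 above 0, and in 27.7% of 5754 tested protein-coding features. STRE stood in 6 of the 10 below 0, in 2 of the 10 above, and in 39.9% of all. PAC stood in 2 of the 10 below and 6 of the 10 above, against 32.0% of all, and RRPE in 4 and 6, against 38.2%. The core of URS1, the element that Ume6 binds (AGCCGCC), stood in 0 of the 10 below and 1 of the 10 above, with 4.92% of all. No test was made of these shares.

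Invertase is the enzyme that makes growth on sucrose possible, and its gene SUC2 (YIL162W, chromosome IX, 37385 to 38983) fell in 2SA in sucrose, while its glucose pairs went both ways. In glucose it had 58.7, 22.1 and 29.4 CPM (scaled by TMM, as are the levels below) in WT replicates 1 to 3 and 79.0, 25.7 and 28.0 in 2SA. In sucrose it had 291, 1068 and 672 CPM in WT and 202, 560.0 and 439 in 2SA. Every sucrose library stood above every glucose library, and within sucrose each 2SA library stood below the WT library of its pair, although the WT and 2SA ranges overlapped. The log2 fold change of 2SA was 0.20 ± 0.12 (SE) in glucose and −0.69 ± 0.11 in sucrose, with edgeR adjusted p of 0.618 and 0.0181, so by the call rule it fell in sucrose. The interaction was −0.89 ± 0.16, with a 95% interval of −1.26 to −0.52 and an edgeR adjusted p of 0.521. Without the sucrose pair numbered 2 it was −0.76.

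RGI2 (YIL057C, chromosome IX, 247902 to 248396) is needed for full respiratory energy metabolism. It had 6.18, 1.22 and 0.669 CPM in WT and 7.02, 1.07 and 0.865 in 2SA in glucose. In sucrose the levels were 75.6, 394 and 48.9 in WT and 42.2, 151 and 21.8 in 2SA. In glucose the pairs went both ways, while in sucrose each 2SA library stood below its WT partner. RGI2 fell in 2SA in sucrose (log2 fold change −1.13, edgeR adjusted p = 0.00206), and its interaction was −1.27 ± 0.22, with an interval of −1.76 to −0.77 and an adjusted p of 0.505. Without the sucrose pair numbered 2 the interaction of RGI2 was −1.11. Glucose replicate 1 had the highest RGI2 level of the glucose libraries in both genotypes.

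TDH1 (YJL052W, chromosome X, 338271 to 339269) encodes the glyceraldehyde-3-phosphate dehydrogenase isozyme best known from starved and stressed cells. It had 350.1, 82.2 and 111 CPM in WT and 267, 57.6 and 78.5 in 2SA in glucose. In sucrose it had 691, 445 and 187 in WT and 259, 183 and 95.4 in 2SA. Here both sugars showed 2SA below WT in each pair, with the wider gap in sucrose. The log2 fold change was −0.47 ± 0.10 in glucose (edgeR adjusted p = 0.0935) and −1.23 ± 0.10 in sucrose, where it fell (adjusted p = 0.000477). The interaction was −0.76 ± 0.14, with an interval of −1.06 to −0.45 and an edgeR adjusted p of 0.505. Its sequence is 90.2% identical to TDH2 over 999 bases, so its counts depend on how the authors placed reads with several matches.

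EGO4 (YNR034W-A, chromosome XIV, 692561 to 692857), whose expression is known to depend on Msn2 and Msn4, also stood lower in 2SA in all 3 sucrose pairs, while its glucose pairs went both ways. In glucose it had 28.3, 5.40 and 4.68 CPM in WT and 24.0, 4.20 and 4.83 in 2SA. In sucrose the levels were 59.5, 302 and 32.4 in WT and 25.9, 154 and 11.1 in 2SA. The sucrose pairs differed by −1.20, −0.97 and −1.54 on the log2 CPM scale (prior count 2) and the glucose pairs by −0.24, −0.36 and 0.04. The interaction was −1.03 ± 0.18, and −1.16 without the sucrose pair numbered 2, with edgeR adjusted p of 0.505 and 0.844.

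ADR1 (YDR216W, chromosome IV, 895035 to 899006), an activator of genes for ethanol and fatty acid use that glucose holds down, was 1 of 2 features among the 10 below 0, with GAD1, in which 2SA stood above WT in all 3 glucose pairs and below it in all 3 sucrose pairs. It had 53.4, 25 and 18.1 CPM in WT and 70.6, 30.1 and 21.9 in 2SA in glucose. On sucrose ADR1 had 80.1, 382 and 79.4 in WT and 67.1, 205 and 62.4 in 2SA. Neither effect was called (log2 fold change 0.32, adjusted p = 0.416, in glucose, and −0.50, adjusted p = 0.0630, in sucrose, by edgeR). The interaction was −0.82 ± 0.17, and −0.61 without the sucrose pair numbered 2, in which the gap was widest. GAD1, the gene of glutamate decarboxylase, had an interaction of −0.52 ± 0.11 (edgeR adjusted p = 0.788).

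**Figure D2:**
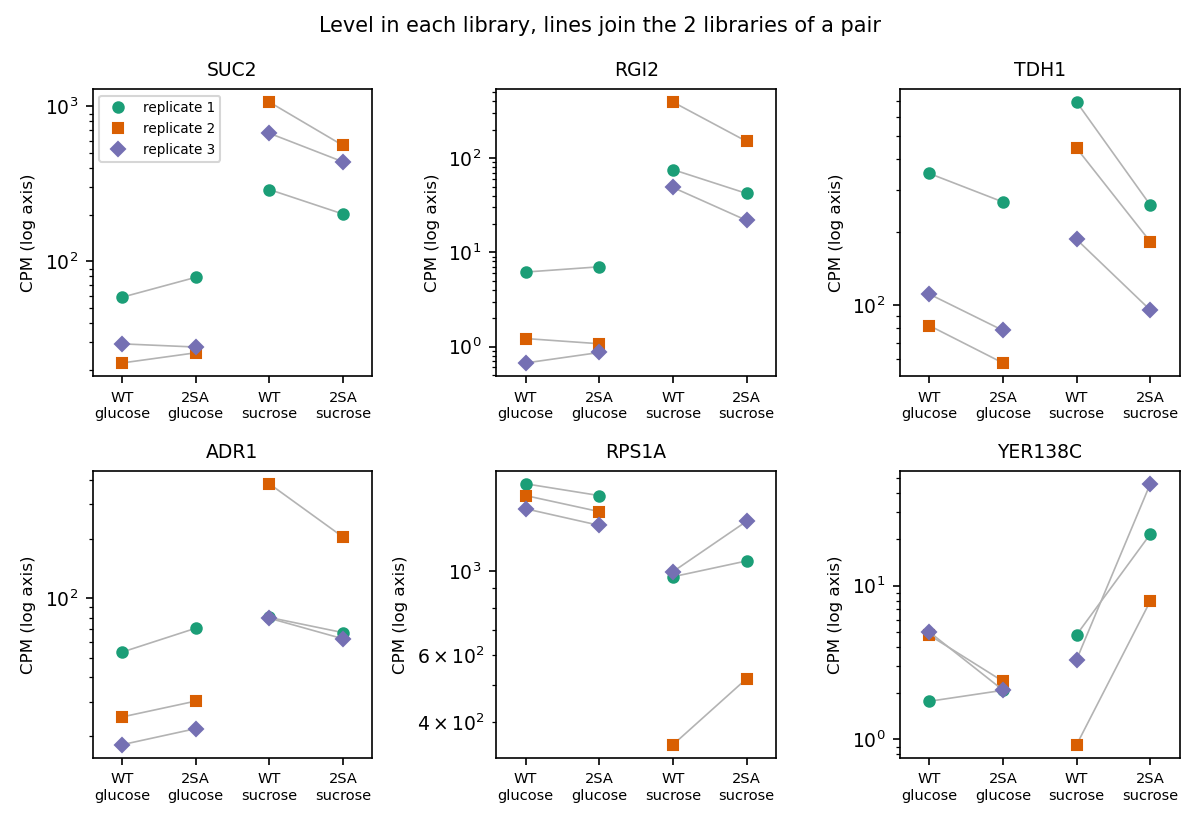
CPM (TMM-scaled, log axis) of SUC2, RGI2, TDH1, ADR1, RPS1A and YER138C in each of the 12 libraries, with lines joining the WT and 2SA library of a pair. For SUC2, RGI2, TDH1 and ADR1 the lines slope down from WT to 2SA in all 3 sucrose pairs, while for RPS1A and YER138C they slope up, and the libraries of the sucrose pair numbered 2 are the highest of their group for SUC2, RGI2 and ADR1 and the lowest for RPS1A.

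The other 4 features below 0 had interactions from −1.47 to −0.53. MAN2, the gene of a mannitol dehydrogenase, had −1.47 ± 0.31, with 2SA lower in each of the 6 pairs. Its levels were low, with group means of 1.73 to 2.65 CPM outside WT in sucrose. There the libraries had 3.05, 20.6 and 4.08 CPM, so the mean of 9.25 rested on replicate 2. Without the sucrose pair numbered 2 the interaction of MAN2 was −1.33. Its sequence is 98.9% identical to DSF1 over 1509 bases, so its counts are uncertain. TMA10, a ribosome-associated protein of stressed cells, had −1.13 ± 0.24, and −0.86 without the sucrose pair numbered 2. GIP2, which encodes a likely subunit of the Glc7 phosphatase that acts on glycogen synthase, had −0.64 ± 0.13. The nicotinamidase gene PNC1 had −0.53 ± 0.12 (edgeR adjusted p = 0.883). MAN2, TMA10 and GIP2 fell in 2SA in sucrose, with log2 fold changes of −2.10, −1.11 and −0.73 and edgeR adjusted p of 0.00231, 0.0141 and 0.00632. Their interactions, like that of ADR1, had an edgeR adjusted p of 0.744.

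HXK1, GLK1 and HXT6, which DESeq2 called but which are not among the 10 below 0, were named after their values were seen. Their products act at the entry of hexoses into glycolysis. HXK1, the hexokinase isozyme used when glucose is scarce, had 1513, 446 and 244 CPM in WT and 1609.7, 560.4 and 223 in 2SA in glucose. The sucrose levels were 3011, 9258 and 3327 in WT and 2158, 5053 and 1964 in 2SA. In sucrose each 2SA library was below its WT partner, and in glucose the pairs went both ways. The interaction of HXK1 was −0.80 ± 0.19 (edgeR adjusted p = 0.884). That of the glucokinase gene GLK1 was −0.65 ± 0.16 and that of the high-affinity transporter gene HXT6 −1.07 ± 0.30 (edgeR adjusted p of each 0.974). For HXT6 the pairs overlapped, with log2 CPM differences of 0.52, 0.47 and −0.69 in glucose and −0.56, −1.06 and −1.17 in sucrose. Its interaction ran from −1.43 to −0.85 without single pairs. HXT6 is 99.8% identical to HXT7 over 1713 bases, and HXK1 and GLK1 each overlap another annotated feature, so reads there cannot be told apart without the counting rules.

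Above 0, YER138C (chromosome V, 443756 to 449024, minus strand), which encodes the Gag-Pol polyprotein of a Ty1 retrotransposon, had the largest estimate of all tested features. Its raw counts in glucose were 39, 98 and 112 in WT and 44, 58 and 46 in 2SA. In sucrose they were 113, 23 and 73 in WT and 581, 212 and 944 in 2SA. The 2SA sucrose libraries stood above all others, and in glucose 2SA was lower than WT in 2 of 3 pairs. The log2 fold change was −0.74 ± 0.36 in glucose and 2.99 ± 0.34 in sucrose, where it rose (edgeR adjusted p = 0.00428). The interaction was 3.73 ± 0.49, a 13.3-fold difference, with an interval of 2.61 to 4.85, an unadjusted p of 3.49e-05 and an adjusted p of 0.212. Without glucose pair 1 or without sucrose pair 1 it was called (4.11 and 4.29, adjusted p = 0.0447 and 0.0272). It was not called without glucose pair 2 or 3 (adjusted p = 0.999 and 0.498). Nor was it called without sucrose pair 2 or 3 (adjusted p = 0.701 and 0.429, all by edgeR). The table holds 71 near copies of it, at 80% identity or more, so the count of this 1 copy depends on how reads with several matches were placed. Another Ty1 element, YDR365W-B, rose in both sugars and had an interaction of −0.40, with an interval of −0.93 to 0.14.

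The genes for ribosomes had small estimates of like size. RPS1A (YLR441C, chromosome XII, 1018141 to 1018908), a protein of the small subunit, had 1697, 1580.0 and 1459 CPM in WT and 1580.1, 1434 and 1319 in 2SA in glucose. In sucrose it had 966, 349 and 996 in WT and 1063, 521 and 1352 in 2SA. Each 2SA library was below its WT partner in glucose and above it in sucrose. Its interaction was 0.52 ± 0.16, with an interval of 0.16 to 0.87 (edgeR adjusted p = 0.974). RPA190, the largest subunit of RNA polymerase I, had 0.50 ± 0.15 and UTP20, a factor in small-subunit processing, 0.46 ± 0.13. RPL43B, RPS24B and RPL17B had 0.44, 0.52 and 0.51, and each, like RPS1A, has a near copy of at least 80% identity. Of the others, the mitochondrial malic enzyme gene MAE1 had 0.48, the B-type cyclin gene CLB1 0.59 and MDM20, a subunit of an N-terminal acetyltransferase, 0.39. None of these 9 was called in either sugar.

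**Figure D3:**
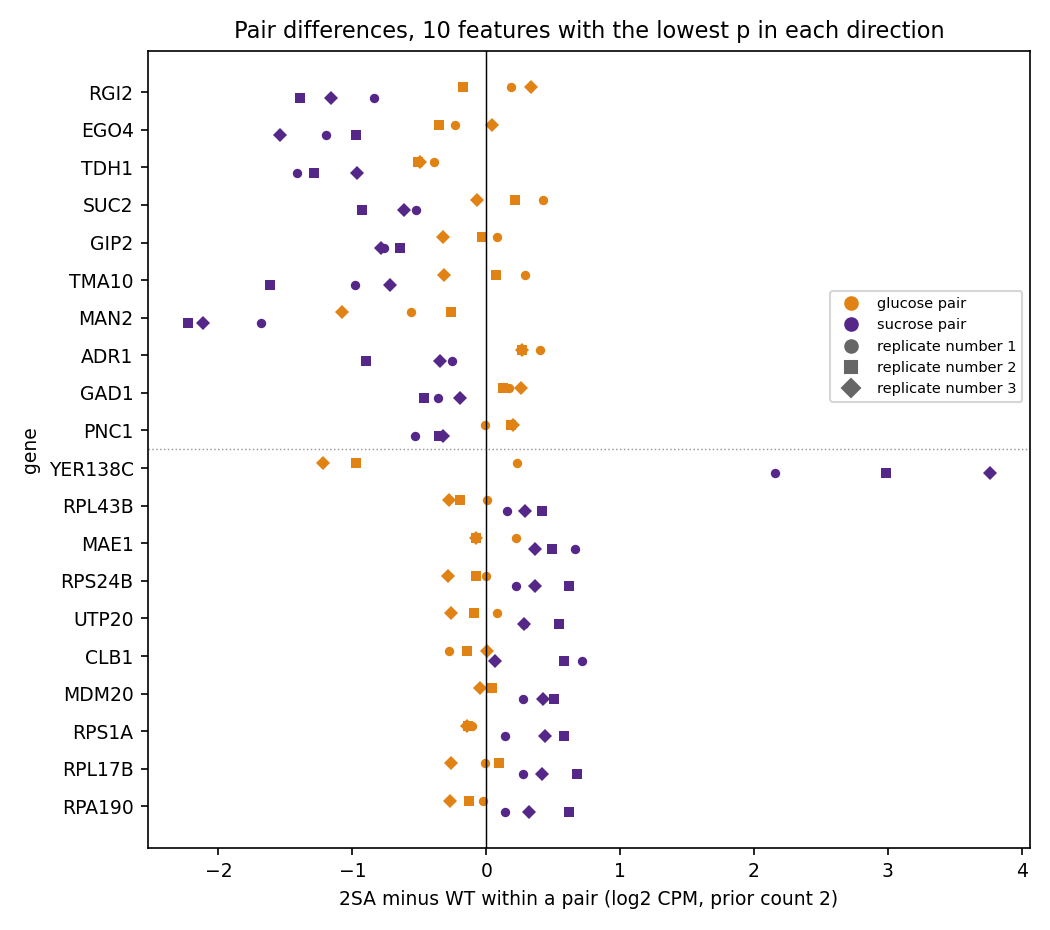
Difference of log2 CPM (prior count 2) between 2SA and WT within each of the 6 pairs, for the 10 features with the lowest p below 0 (upper block) and above 0 (lower block). In each row the 3 sucrose pairs lie on 1 side of the 3 glucose pairs, and the sucrose pair numbered 2 is often the farthest out.

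These 20 features also tracked the sucrose pair numbered 2. In sucrose its library was the highest of the 3 for 9 of the 10 features below 0 in WT and for 9 of 10 in 2SA, and the lowest for 9 of the 10 above 0 in each genotype. The sign of the interaction was the same for all 20 without any 1 of the 6 pairs. Since the sucrose and glucose pairs of each lay apart, that outcome was fixed beforehand and nothing is read from it. In glucose, the library numbered 1 was the highest of the 3 for each of the 10 features below 0, in WT and in 2SA. Among those above 0 its place varied. The part of glucose pair 1 and of the sucrose pair numbered 2 in the estimates, beyond these values, was not tested. In RNA from whole cultures, a change in every cell and a change in a share of the cells cannot be told apart.

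Gene lists give the wider view; there were 37, and 36 had 3 or more tested features. None of the 36 held a called member in either direction. For 20 of the 36 the median interaction lay within 0.1 of 0, and for 26 within 0.15. The lowest median was −0.50 and the highest 0.33, against −0.01 over all tested features. Of all 6085 tested features, 2838 had a value above 0 and 3247 a value below. At an unadjusted p under 0.05, 2.5% of all stood above 0 and 2.47% below. The medians and counts below describe each list and are not tests of it.

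The largest list, the cytosolic ribosomal proteins, had a median of 0.33. Of its 138 members 134 had a value above 0, and 47 (34.1%) had an unadjusted p under 0.05, all above 0, against 2.5% of all tested features; 54 had sucrose pairs wholly above the glucose pairs (39.1%, against 5%). By pair the list median of 2SA minus WT was −0.06, 0.09 and −0.21 in glucose and 0.07, 0.56 and 0.28 in sucrose, so sucrose pair 1 overlapped glucose pair 2. Without the sucrose pair numbered 2 the median was 0.23. Ribosomal protein genes took 14.2% to 17.5% of counts in glucose, 9.68%, 4.09% and 11.3% in WT in sucrose, and 10.3%, 5.85% and 13.4% in 2SA in sucrose, higher in 2SA in each sucrose pair. Ribosome biogenesis factors had a median of 0.21, with 80 of 82 above 0 and 17 (20.7%) at an unadjusted p under 0.05. That median was 0.12 without the sucrose pair numbered 2 and 0.35 without sucrose pair 3. Ribosomal genes are known to be regulated together, so members are not independent of each other.

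Among lists below 0, the general stress response (targets of Msn2 and Msn4, together with MSN2 itself) had a median of −0.29. Of its 40 members 35 were below 0 and 10 (25%, against 2.47% of all) had an unadjusted p under 0.05, all below 0. By pair the list stood at −0.20, 0.02 and 0.11 in glucose and −0.52, −0.33 and −0.29 in sucrose, with no overlap, and its median was −0.42 to −0.25 without any 1 pair. Its share of counts in sucrose was 1.35%, 2.21% and 0.718% in WT and 0.932%, 1.85% and 0.573% in 2SA. Beyond those already named, MSN4, the gene of one of the activators, had −0.59 and fell in sucrose (edgeR adjusted p = 0.0425), and the small heat-shock gene HSP26 had −0.65. RGI2 had the lowest value of the list, −1.27, and MSN2 the highest, 0.25. Genes of trehalose and glycogen metabolism, the storage carbohydrates, had a median of −0.24, with all 19 below 0 and 7 (36.8%) at an unadjusted p under 0.05. The glycogen phosphorylase gene GPH1 had −0.63 ± 0.24 and fell in sucrose (log2 fold change −1.02, edgeR adjusted p = 0.0181), and the debranching enzyme gene GDB1 had −0.48 ± 0.13. Without the sucrose pair numbered 2 the median of this list was −0.11.

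Glycolysis and fermentation genes had a median of −0.33, with 22 of 23 below 0. At an unadjusted p under 0.05 were 5 (21.7%, against 2.47% of all tested features). These 5 were TDH1, HXK1, GLK1, the enolase gene ENO1 (−0.63) and the pyruvate kinase gene CDC19 (−0.51). The pairs did not tell one story, since the list median was 0.04, 0.01 and 0.01 in glucose and −0.58, −0.47 and 0.08 in sucrose. Without sucrose pair 1 the median interaction was −0.15, and without sucrose pair 3 it was −0.52. The main hexose transporters and glucose sensors had the lowest median, −0.50. In this list 3 of 10 members (HXT6, HXT2 and HXT7) had an unadjusted p under 0.05 (30%, against 2.47% of all). HXT1, the low-affinity transporter that high glucose induces, had 0.53 ± 0.25. Without the sucrose pair numbered 2 the median was −0.13. Heat shock chaperones depended on that pair for their sign: the median was −0.20 with it and 0.11 without it. An unadjusted p under 0.05 was found for 0 of 20 members, against 4.96% of all tested features, so nothing is read from that count.

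Genes for other sugars were mixed. In the sucrose, maltose and isomaltose list the median was −0.12, which was −0.39 without glucose pair 1, −0.33 without sucrose pair 3 and −0.07 without sucrose pair 2. Within it SUC2 was followed by the maltose permease genes MAL31 (−0.51 ± 0.17) and MAL11 (−0.53 ± 0.22). The alpha-glucoside transporter genes MPH2 and MPH3, near copies of each other, and the isomaltase gene IMA2 fell in 2SA in sucrose (edgeR adjusted p of each 0.0490) and had interactions of 0.37, 0.11 and −0.13, since their estimates in glucose were of like size (−1.77, −1.64 and −1.06). Among regulators of glucose repression the median was −0.11, and 0.013 without the sucrose pair numbered 2. MIG1, the gene of the repressor itself, fell in sucrose (log2 fold change −0.63, edgeR adjusted p = 0.00441) and had an interaction of −0.35 ± 0.10, while the kinase gene SNF1 had −0.07 ± 0.10. Gluconeogenesis genes had a median of −0.05 with no stable sign, since it was 0.14 without sucrose pair 1, 0.10 without sucrose pair 3, 0.06 without glucose pair 1 and −0.20 without sucrose pair 2. The respiratory chain had −0.20, with 32 of 34 members below 0, and −0.11 without glucose pair 2. Peroxisomal fatty acid oxidation had −0.14, and −0.09 without sucrose pair 3. The tricarboxylic acid cycle had −0.08, and −0.01 without sucrose pair 1.

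**Figure D4:**
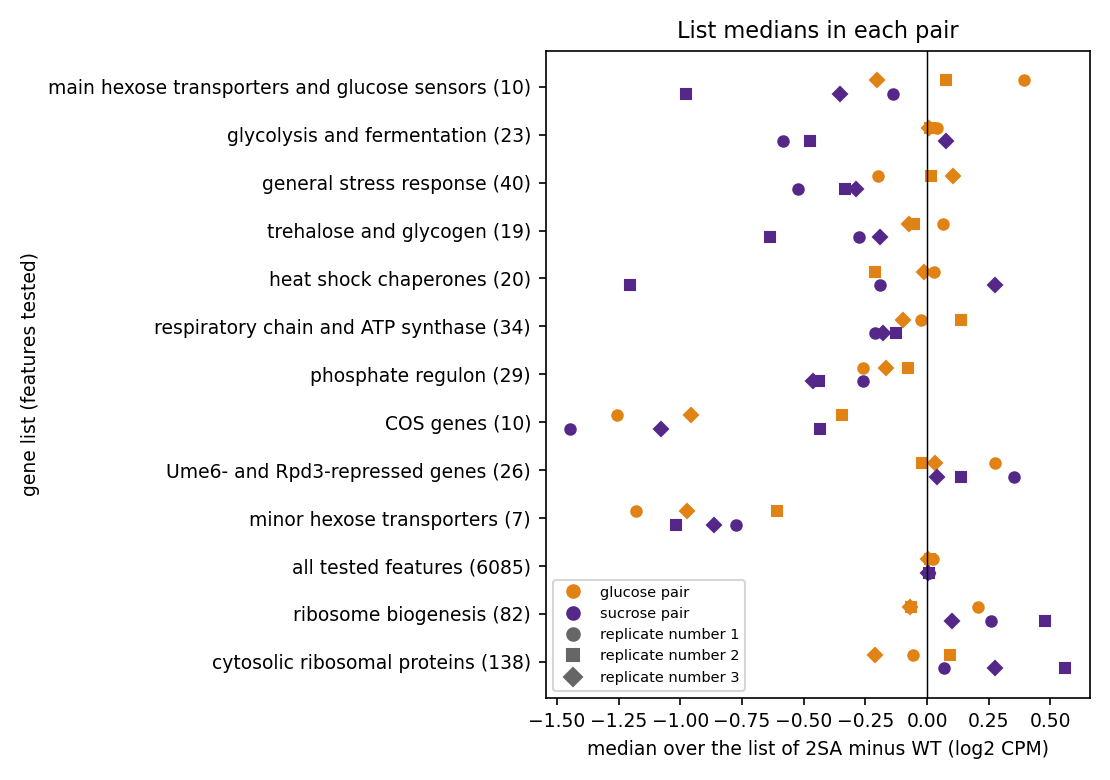
Median over each gene list of the difference of log2 CPM between 2SA and WT, in each of the 6 pairs (lists ordered by their median interaction, number of tested features in brackets). The general stress list has its 3 sucrose pairs below its 3 glucose pairs, the heat shock list spans −1.20 to 0.28 in sucrose, and the COS and minor hexose transporter lists lie below 0 in both sugars.

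Genes of the Rpd3 machinery itself had small interaction estimates. The 14 subunits and partners of the Rpd3 complexes had a median of −0.01 and a range of −0.17 (RXT2) to 0.29 (ASH1). At an unadjusted p under 0.05 were 0 of the 14, where 4.96% of all tested features were, so nothing is read from that count. SIN3, the scaffold, had 0.03, with an interval of −0.21 to 0.26, and UME6 0.02, with −0.33 to 0.38. Of 26 genes known to be repressed by Ume6 and Rpd3, mostly early meiotic genes, 0 were called, as among all tested features. Their median was −0.03, with a range of −0.11 to 0.05 without any 1 pair. CAR2, for arginine breakdown, had −0.55 ± 0.18 (unadjusted p = 0.0147), with log2 fold changes of 0.85 in glucose and 0.30 in sucrose; INO1, for inositol synthesis, had 0.69, with an interval of −0.44 to 1.83 that does not exclude a large difference either way.

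Most features called in one sugar had the same direction in the other. In the same fit, glucose had 7 features higher (0.115%) and 22 lower (0.362%) in the mutant, and sucrose 14 higher (0.23%) and 98 lower (1.61%). Of the 98 lower in sucrose, 94 (95.9%) were also below 0 in glucose, against 46.2% of all tested features, with median log2 fold changes of −1.12 and −0.75. All 22 that fell in glucose also fell in sucrose, and 4 of the 7 that rose in glucose were called in sucrose too. The 86 features called in sucrose alone do not show a difference between sugars by that fact: 0 passed the test of the interaction, and the 95% interval of 50 of them held 0. The other 36 had an unadjusted p under 0.05, where 4.96% of all tested features did; the sucrose effect that chose these features is part of the interaction, so nothing is read from that share.

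In all, 26 features were called in both sugars, and the width of their intervals varied. The interval lay within 2-fold for 21 of them and within 1.5-fold for 6, against 5384 (88.5%) and 4046 (66.5%) of all 6085 tested features, beside a median absolute log2 fold change of 1.60 in sucrose. SNZ3, a vitamin B6 synthesis gene, had 311, 679 and 860 counts in WT and 49, 43 and 70 in 2SA in glucose. Its sucrose counts were 454, 607 and 802 in WT and 61, 33 and 77 in 2SA. The groups did not overlap in either sugar, and the interaction was −0.02, with an interval of −0.96 to 0.93; SNZ3 is 99.3% identical to SNZ2 over 897 bases. ADH7, an alcohol dehydrogenase gene, had 264, 221 and 299 counts in WT and 62, 59 and 89 in 2SA in glucose. Its counts in sucrose were 367, 437 and 292 in WT and 119, 125 and 79 in 2SA. Again the groups did not overlap within a sugar. The interaction of ADH7 was 0.12, with an interval of −0.33 to 0.57, and IRC4 had 0.08, with −0.27 to 0.43. The COS genes near chromosome ends had list medians of −0.95 in glucose and −1.14 in sucrose, and the minor hexose transporters −0.94 and −0.95.

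The phosphate regulon lay between these patterns. PHO11 and PHO12, near-identical acid phosphatase genes, and the transporter gene PHO89 fell in 2SA in both sugars. PHO11 had an interaction of −0.48, with an interval of −0.96 to 0.0025 and an unadjusted p of 0.0510, PHO12 −0.35 and PHO89 0.20. Of 29 members 22 were below 0, 5 at an unadjusted p under 0.05 (17.2%, against 2.47% of all tested features). Those 5 included the kinase inhibitor gene PHO81 (−0.45 ± 0.10), SPL2, which lowers low-affinity phosphate uptake (−0.84 ± 0.22), and the high-affinity transporter gene PHO84 (−0.49 ± 0.17), each of which fell in sucrose (edgeR adjusted p = 0.00427, 0.00543 and 0.0147).

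**Figure D5:**
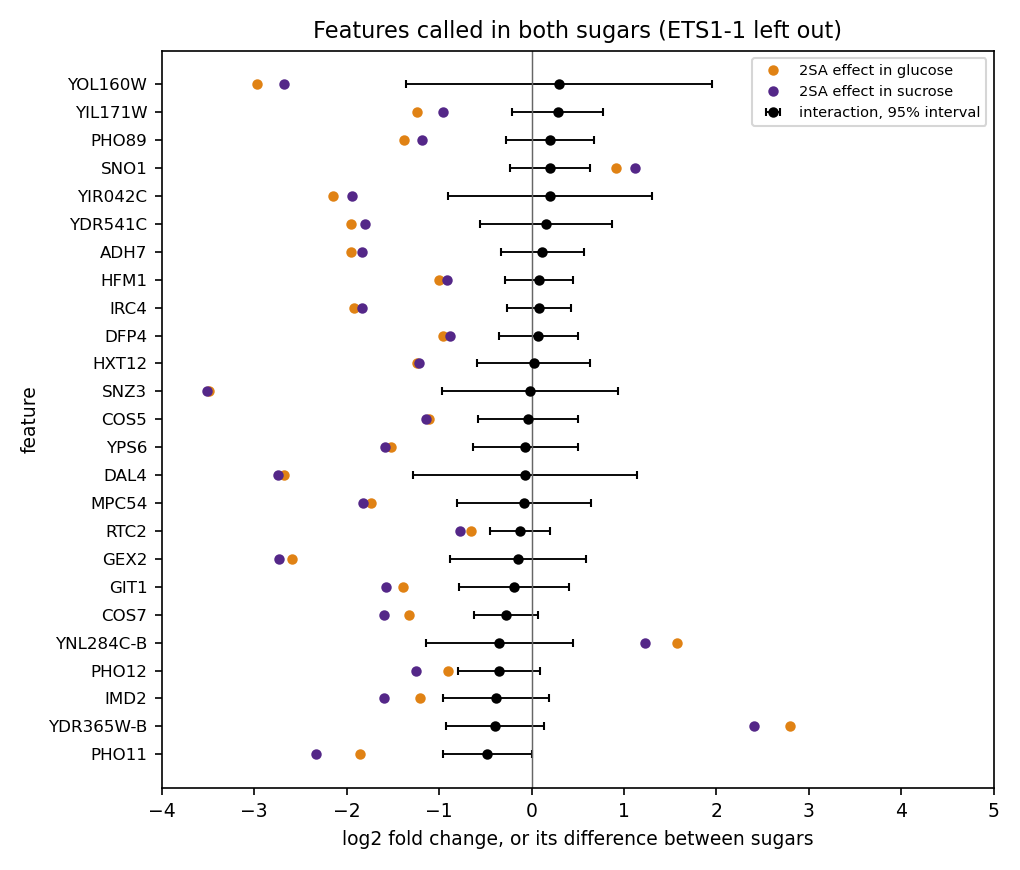
Log2 fold change of 2SA against WT in glucose (orange) and sucrose (purple), and the interaction with its 95% interval, for 25 of the 26 features called in both sugars (ETS1-1 is left out for scale). The interval of each plotted feature holds 0, and the orange and purple points of SNZ3, HXT12 and COS5 nearly coincide.

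ETS1-1, an external transcribed spacer of the ribosomal RNA precursor, was the 1 feature called in both sugars with an interaction at an unadjusted p under 0.05. It had 2, 0 and 0 counts in WT and 73, 35 and 38 in 2SA in glucose. Sucrose counts were 6, 11 and 4 in WT and 39, 52 and 38 in 2SA. The groups did not overlap in either sugar. The fitted interaction of −3.42 rests on WT counts at or near 0 in glucose and is no bound, and ETS1-2 is an identical copy over 700 bases, so which copy the reads came from cannot be told apart.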

How the data were processed

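The authors deposited 1 table of raw counts of reads per gene, whole numbers with no normalization. Reads were aligned with Bowtie 0.12.2 to sacCer3, per the submitters' processing notes. For the counting program, its strand setting and its treatment of reads with several matches, the sources used here give nothing. Groups and replicate numbers came from the sample titles, and p-values measure the spread between these replicates.

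The test was edgeR's quasi-likelihood F-test (edgeR 4.0.16, R 4.3.3), with TMM scaling (factors 0.922 to 1.11) and its default filter (minimum count 10). The fit had a block for each of the 6 pairs, a 2SA effect in each sugar and 4 residual degrees of freedom. A feature was called at a Benjamini-Hochberg adjusted p under 0.05 and a fold over 1.5. Standard errors and 95% intervals come from this fit. The replicate numbers pair libraries within a sugar, as a feature of the data (correlations in the report). Across sugars, libraries of the same number correlated with r from −0.195 to 0.479, so numbers were not matched between sugars. All replicate pairs differed by more than sampling noise (lowest chi-square 89.8 per degree of freedom). Pair differences are log2 CPM with prior count 2.

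Named genes were those called in the interaction and, for the places left up to 10 in each direction, those with the lowest p among features whose mean reached 5 CPM in a group, with RPD3 and SUC2. Other genes are the lowest or highest of a list, called in both sugars, or chosen after their values were seen. The comparison, the lists and the named examples were chosen with earlier results of these data known. Near copies were found with BLAST+ 2.17.0 (at least 80% identity over 100 bases). The test was checked on simulated data. There were 16 alternatives, with DESeq2 1.42.0 and limma 3.58.1 among them.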

Additional observations from a re-analysis of the deposited data

How the results depend on the processing

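The counts of 0 called features in each direction held with other scalings (RLE, upper quartile), no filter or a minimum count of 50, limma-voom, no fold threshold and the additive block. DESeq2 called 1 higher and 9 lower. Leaving out 1 pair gave 0 to 1 features higher and 0 to 0 lower, the 1 being YER138C without glucose pair 1 or sucrose pair 1. With no replicate block, 0 were called in each direction, the common dispersion was 0.0719 in place of 0.0134 and 10 features had an unadjusted p under 0.05; with the additive block there were 26 and without all libraries numbered 2 there were 102. Without single pairs this count ran from 174 (sucrose pair 2) to 440 (sucrose pair 1). The cause of these differences was not tested. RPD3 ranged from −0.13 to 0.0032 without single pairs, with 0.0032 without glucose pair 3 and 0.0022 without sucrose pair 1. The signs of the other 23 named features held under every alternative. For the features whose pairs lay apart, leaving out a single pair could not have changed the sign. Of the list medians, 530 values moved by less than the spread between pairs and 10 by more. That spread is wide, and a move within it could change the sign. Without single pairs the median ran from −0.10 to 0.20 for NAD synthesis and from −0.30 to 0.15 for COS genes. For middle and late sporulation it ran from −0.37 to 0.18. The scalings and filters moved the median of all genes by less than 0.01. With 3 pairs per sugar and a median half-width of 0.35, differences under 1.5-fold could not be resolved for many features. These intervals are not adjusted for the number of features tested. By the call rule of the main edgeR fit no larger difference passed either, the 13.3-fold estimate of YER138C included (adjusted p = 0.212).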
